A study of Mus musculus with 5 samples.

Results

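The core genes of planar cell polarity were measured in mouse neuroepithelial cells (NECs), the proliferating epithelium of the young neural tube from which radial glia later arise. They are the 9 genes Vangl1, Vangl2, Celsr1, Celsr2, Celsr3, Prickle1, Prickle2, Ptk7 and Scrib, chosen by name. All 9 were found among the 21801 genes of the deposited table, and all 9 had values above 0 in each library. The RNA came from 5 libraries of 1 untreated group, NEC replicates 1 to 5, which the labels describe as neural progenitor cells and the series text as purified and from the developing neocortex. The strain and age of the mice, any transgene and the way of purification could not be taken from the labels. Nor do they tell if each replicate was a different animal or culture, so p-values cover the spread among these 5 libraries, and that spread may be technical.

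Planar cell polarity aligns cells within the plane of an epithelium, at right angles to their apical and basal axis. Seven-pass atypical cadherins of the Celsr family link neighbouring cells and hold Frizzled receptors with Dishevelled on one face of the cell and Vangl with Prickle on the opposite face. Scrib is a scaffold protein of the basolateral membrane that binds Vangl, and Ptk7 is a receptor-like protein with an inactive kinase domain. In the mouse the pathway is best known for closure of the neural tube, since loss of Vangl2, Celsr1, Scrib or Ptk7 leaves the tube open over most of its length. In forebrain it is also known for the guidance of axons, for which Celsr2, Celsr3 and Fzd3 are needed.

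Levels are given as FPKM, in which fragments are divided by the transcript length in kilobases and by the mapped reads in units of 1000000, and as mean ± SD over the 5 libraries (n = 5). Each gene was tested against 1 FPKM on the log2(FPKM + 1) scale with limma, over all 19706 genes with a value above 0 in at least 1 library, and a call above or below needed a Benjamini-Hochberg adjusted p smaller than 0.05. A value on this scale understates the difference of low genes. The steps between the lowest values implied totals of 20.6 to 28.4 M reads (1 M = 1000000) behind the unit. The FPKM summed to 747034 to 847625 per library. Of 11 neural progenitor markers 10 were called above 1 FPKM and none below, with Prom1 the highest at 88.1 ± 10.96 FPKM. Markers of other cells were also present. In the mesenchyme list 8 of 10 were called above and 1, Dcn, below. The summed level ran from 39.3 to 142 FPKM, and none was at 0. In the surface ectoderm list 8 of 9 were above and none below, and the sum ran from 131 to 201.0 FPKM. In the neuron list 7 of 10 were above and 3, Elavl3, Dcx and Rbfox3, below, and the sum ran from 95.4 to 135 FPKM. Of 5 endothelium markers 1 was above and 2 were below, with sums of 5.00 to 7.96 FPKM. Of 5 blood and microglia markers none was above and 4 were below, with sums of 0.274 to 0.846 FPKM and Aif1 at 0. Of all tested genes 52.3% were called above and 41.4% below. These RNAs come from bulk samples, in which fewer cells of a type and less RNA per cell cannot be told apart. The part of other cells in the levels below was not tested.

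The genes differed widely among themselves. Of the 9, 4 were called above 1 FPKM, 3 below and 2 neither way, against 52.3% of all tested genes called above and 41.4% called below. The median of their levels was 1.09 FPKM, against 1.79 FPKM over all tested genes. Levels ran from 5.81 ± 0.68 FPKM for Vangl2 to 0.0659 ± 0.0194 FPKM for Celsr3, and 1 paralog stood well above the others in each of the Vangl and Celsr families. The same counts of 4 above and 3 below were obtained when any 1 library was left out.

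**Figure D1:**
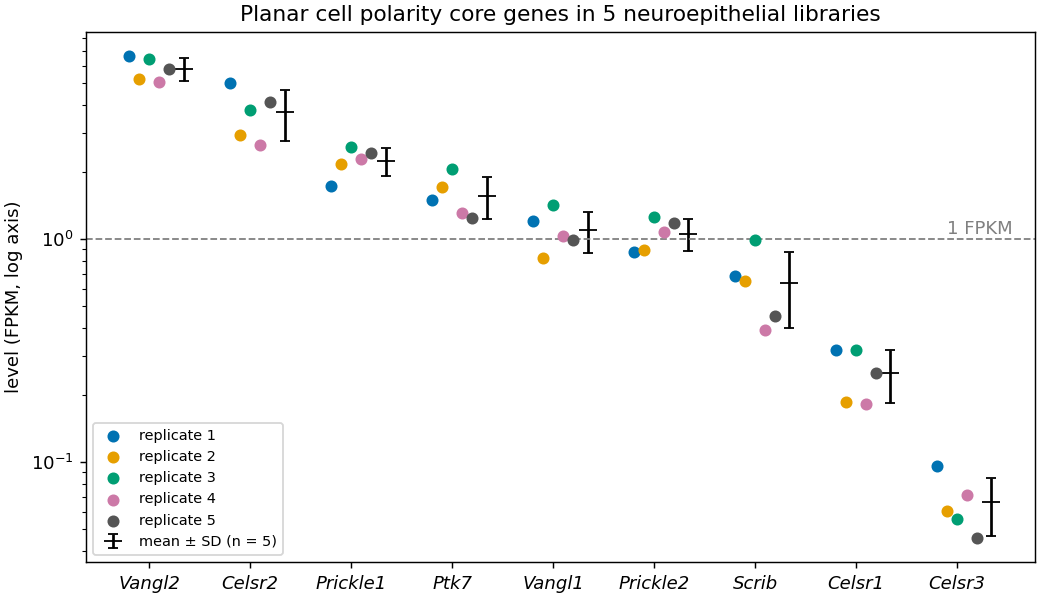
Level of each of the 9 core genes in FPKM on a log axis, ordered by mean. Points are the 5 NEC libraries, black marks are the mean ± SD (n = 5) and the dashed line is 1 FPKM. Vangl2 and Celsr2 lie above the line in every library, and Celsr1 and Celsr3 below it in every library.

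The 250 bases before a RefSeq start (build GRCm38.p6, gene strand, 5′ to 3′) are shown for Celsr2 and Celsr3, the highest and the lowest of the Celsr genes, and for the outermost start of Prickle1 and Prickle2, with each CG pair in capitals. They lie at chr3:108415580-108415829 on the minus strand for Celsr2, chr9:108825795-108826044 on the plus strand for Celsr3, chr15:93595903-93596152 on the minus strand for Prickle1 and chr6:92706185-92706434 on the minus strand for Prickle2.
Celsr2: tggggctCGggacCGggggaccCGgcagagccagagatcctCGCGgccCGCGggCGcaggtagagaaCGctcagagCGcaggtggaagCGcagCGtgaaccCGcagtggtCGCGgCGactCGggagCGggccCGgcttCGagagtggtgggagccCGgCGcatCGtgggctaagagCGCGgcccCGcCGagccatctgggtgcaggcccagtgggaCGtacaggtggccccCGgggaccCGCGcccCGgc
Celsr3: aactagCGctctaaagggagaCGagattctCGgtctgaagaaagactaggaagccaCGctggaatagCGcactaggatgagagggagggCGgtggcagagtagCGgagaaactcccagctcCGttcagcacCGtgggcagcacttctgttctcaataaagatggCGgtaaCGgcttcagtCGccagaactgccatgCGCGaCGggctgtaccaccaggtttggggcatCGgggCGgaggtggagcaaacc
Prickle1: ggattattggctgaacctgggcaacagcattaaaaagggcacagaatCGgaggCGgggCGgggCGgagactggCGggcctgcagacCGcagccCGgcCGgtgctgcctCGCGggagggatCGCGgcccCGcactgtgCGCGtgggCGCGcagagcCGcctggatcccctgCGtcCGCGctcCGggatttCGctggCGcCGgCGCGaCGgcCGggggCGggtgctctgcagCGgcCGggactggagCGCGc
Prickle2: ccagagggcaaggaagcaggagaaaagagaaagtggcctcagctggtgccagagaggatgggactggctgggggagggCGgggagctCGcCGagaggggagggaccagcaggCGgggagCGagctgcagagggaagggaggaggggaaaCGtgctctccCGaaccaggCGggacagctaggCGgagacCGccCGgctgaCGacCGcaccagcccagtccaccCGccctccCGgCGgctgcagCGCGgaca

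The Celsr2 window held 32 CG pairs, a number that 4.58% of the 32851 promoter windows of the table reached, and its GC content was 75.2%. The Celsr3 window held 17 CG pairs, reached by 23.5% of windows, at 58% GC. The Prickle1 window held 34 CG pairs, reached by 3.53% of windows, and the Prickle2 window 18, reached by 21.7%. The median over all windows was 6. A second RefSeq start of Prickle1 had 16 CG pairs in its window, fewer than the 18 of the Prickle2 window shown. Other RefSeq starts of Prickle2 had 4, 5 and 4 CG pairs, fewer than both Prickle1 windows. Prickle2 had more only where its outermost start was set against the second start of Prickle1. The Celsr3 window ends at 108826044, before the GENCODE start of the gene at 108826320. The last bases of its entry, past the RefSeq start, were not found in the early part of any GENCODE transcript of Celsr3. Later parts of the transcripts were not searched. The other 5 genes with entries each passed this check for some start, which need not be the start shown. Of the 9 genes, 6 had entries, 10 in all, and the motif GGGCGG, searched on both strands, was found in the windows shown for Celsr3, Prickle1 and Prickle2 and not in that of Celsr2, against 32.7% of all windows. TATAAA, on either strand, was found in none of the 10, against 12.4% of all windows. Vangl1, Celsr1 and Scrib are named here without a promoter sequence.

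Vangl2, a membrane protein with a cytoplasmic tail that recruits Prickle, had the highest level. It stood at 6.60, 5.22, 6.40, 5.07 and 5.78 FPKM in replicates 1 to 5, higher than 63.5% of tested genes. Replicates 1 and 3 were the high libraries and 2 and 4 the low ones, and the highest was 1.30-fold the lowest. The gene (ENSMUSG00000026556) lies on chromosome 1, 172000960 to 172028444 on mm10, minus strand, with a longest coding transcript of 6528 bases in 9 exons. It was 1.76 above the level of 1 FPKM on the log2 scale (SE 0.08, limma adjusted p = 1.46e-07).

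Vangl1, its paralog (ENSMUSG00000027860, chromosome 3, 102153583 to 102204693, minus strand), stood at 1.20, 0.820, 1.43, 1.03 and 0.991 FPKM in replicates 1 to 5. These values straddle 1 FPKM, and it was called neither way (log2 difference 0.06, SE 0.08, limma adjusted p = 0.477). No value of Vangl1 reached the lowest value of Vangl2. Vangl2 held 84.2% ± 1.84 of the FPKM of the pair, and never less than 81.8%. Vangl2 averaged 5.81 FPKM and Vangl1 1.09 FPKM, a ratio of 5.31, and within libraries the difference on the log2 scale was 1.70 ± 0.10, with Vangl2 higher in 5 of 5. In an exact permutation test that flips the signs of the 5 differences, two-sided, p was 0.0625, and 0.0625 after adjustment over the 5 paralog pairs. That is the smallest p that 5 libraries allow, here and for each pair below, so that no pair could pass 0.05. An antisense transcript, Gm16160, overlaps Vangl1 over 738 bases, and with no statement in the labels that the libraries were stranded, its reads could not be told from those of Vangl1.

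The 3 Celsr cadherins covered a wider range than the Vangl or the Prickle genes. Celsr2 (ENSMUSG00000068740, chromosome 3, 108390851 to 108415552, minus strand) stood at 5.03, 2.94, 3.81, 2.64 and 4.13 FPKM in replicates 1 to 5. Replicate 1 was high and replicates 2 and 4 were low, a 1.91-fold range. It was called above 1 FPKM by 1.21 on the log2 scale (SE 0.12, limma adjusted p = 2.75e-05). Its SD on that scale, 0.29, was at least as large as that of 86.1% of the genes with a mean from 1 FPKM, whose median SD was 0.16, so it was the most variable of the 6 core genes at that level.

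Celsr1, the member of the family that is needed for neural tube closure in the mouse (ENSMUSG00000016028, chromosome 15, 85898929 to 86033777, minus strand), stood at 0.318, 0.186, 0.317, 0.182 and 0.251 FPKM in replicates 1 to 5. All libraries lay below 1 FPKM, with replicates 1 and 3 high and 2 and 4 low. It was called below by 0.68 on the log2 scale (difference -0.68, SE 0.04, limma adjusted p = 5.12e-07). With a transcript of 10879 bases these levels stood for an estimated 52.1 to 77.7 reads per library, so a low FPKM here did not mean single reads.

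Celsr3, the family member known from postmitotic neurons, stood at 0.0964, 0.0606, 0.0555, 0.0714 and 0.0458 FPKM in replicates 1 to 5 (ENSMUSG00000023473, chromosome 9, 108826320 to 108852969, plus strand). That is 12.0 to 25.0 estimated reads per library, and whether its libraries differed by more than counting error was not tested. It was called below 1 FPKM (log2 difference -0.91, SE 0.02, limma adjusted p = 1.67e-09). A microRNA gene, Gm23156, lies within it on the same strand.

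Per length, Celsr2 held 92.1% ± 0.906 of the family's FPKM, Celsr1 6.25% ± 0.780 and Celsr3 1.70% ± 0.553. Celsr1 averaged 0.251 FPKM and Celsr2 3.71 FPKM, a ratio of 0.0677. Within libraries Celsr1 minus Celsr2 was -1.89 ± 0.23 on the log2 scale, with Celsr1 lower in 5 of 5. Celsr1 exceeded Celsr3, at 0.0659 FPKM, by 0.23 ± 0.08, and Celsr2 exceeded Celsr3 by 2.12 ± 0.29, each in 5 of 5 libraries. For all 3 the exact sign-flip permutation test gave p = 0.0625, adjusted p = 0.0625.

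Of the Prickle genes, which encode cytoplasmic LIM-domain proteins that bind Vangl, Prickle1 was the higher. It stood at 1.72, 2.17, 2.58, 2.29 and 2.44 FPKM in replicates 1 to 5 and was called above 1 FPKM by 0.69 on the log2 scale (SE 0.09, limma adjusted p = 0.000125). Replicate 1 was the low library. Prickle2 stood at 0.874, 0.891, 1.25, 1.08 and 1.19 FPKM, again with replicate 1 lowest and replicate 3 highest, and was called neither way (log2 difference 0.04, SE 0.07, limma adjusted p = 0.626). Each value of Prickle1 lay above each of Prickle2. A processed pseudogene, Gm17797, overlaps the Prickle2 gene on the opposite strand over 997 bases. Where that overlap meets exons of Prickle2, their reads could not be told apart without strand.

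Prickle1 averaged 2.24 ± 0.33 FPKM and Prickle2 1.06 ± 0.17 FPKM, a ratio of 2.12 that ran from 1.97 to 2.44 over the libraries. The difference within libraries was 0.65 ± 0.07 on the log2 scale, higher for Prickle1 in 5 of 5 (exact sign-flip permutation test, p = 0.0625, adjusted p = 0.0625). The genes lie on chromosome 15 (ENSMUSG00000036158, 93499114 to 93595891) and chromosome 6 (ENSMUSG00000030020, 92370908 to 92706155), both on the minus strand. Prickle3 and Prickle4, less studied relatives, were called below 1 FPKM at 0.356 ± 0.0227 and 0.105 ± 0.123 FPKM. Prickle1 and Prickle2 were both lowest in replicate 1, the library with the lowest summed level of mesenchyme markers (39.3 FPKM), and highest in replicate 3, which had the highest (142 FPKM). The summed level of surface ectoderm markers was also lowest in replicate 1, at 131 FPKM. Genes in general were low there too. Of the 12219 genes whose mean reached 0.5 FPKM, 38.4% lay above their own mean in replicate 1, the smallest share of the 5 libraries. The part of mesenchyme, or of this general shift, in the order of the Prickle genes was not tested.

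Ptk7 (ENSMUSG00000023972, chromosome 17, 46564471 to 46629504, minus strand) stood at 1.499, 1.71, 2.07, 1.31 and 1.24 FPKM in replicates 1 to 5, all above 1 FPKM. Replicate 3 was the high library and 4 and 5 the low ones. It was called above by 0.35 on the log2 scale (SE 0.09, limma adjusted p = 0.00681). Against a level of 2 FPKM its log2 difference was -0.24 and it was called below. The noncoding gene Gm26904 on the opposite strand overlaps the whole of Ptk7, and their reads could not be told apart without strand.

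Scrib (ENSMUSG00000022568, chromosome 15, 76047158 to 76069784, minus strand) stood at 0.685, 0.651, 0.996, 0.392 and 0.452 FPKM. Its replicate 3 value nearly reached 1 FPKM and the highest library was 2.54-fold the lowest, the widest ratio among the 9 genes. It was called below 1 FPKM (log2 difference -0.30, SE 0.08, limma adjusted p = 0.00793), on an estimated 56.4 to 111 reads per library. Rescaling every library to a sum of 1000000 FPKM moved the difference to -0.17, and Scrib was then called neither way. Under the same rescaling Vangl1 and Prickle2 were called above, with log2 differences of 0.24 and 0.21. This rescaling moved the median of tested genes up by 0.22 on the log2 scale.

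Ordered by mean level the genes ran Vangl2, Celsr2, Prickle1, Ptk7, Vangl1, Prickle2, Scrib, Celsr1 and Celsr3. The ranges over the 5 libraries did not overlap between Vangl2 and Celsr2, Celsr2 and Prickle1, Scrib and Celsr1, or Celsr1 and Celsr3. Between Prickle1 and Ptk7, Ptk7 and Vangl1, and Prickle2 and Scrib the ranges overlapped, although the first gene was higher within each of the 5 libraries. Vangl1 and Prickle2 differed by 0.02 ± 0.14 on the log2 scale, with Vangl1 higher in 2 of 5, so their order was not settled.

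The other genes of the pathway, 47 in 6 lists of which 46 were in the table, had a higher median level than the core genes. Of these 46, 35 were called above 1 FPKM, 9 below and 2 neither way. Their median level was 4.85 FPKM, against 1.09 FPKM for the core genes. The lists were chosen with earlier results of these data known, so this difference depends on that choice. The background is the 52.3% of tested genes called above and 41.4% called below.

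Among the other core genes 6 of 9 were called above and 3 below. Fzd3, the Frizzled receptor needed for axon tracts of the mouse forebrain, was the highest at 16.4, 14.3, 11.05, 13.5 and 10.1 FPKM in replicates 1 to 5 (13.1 ± 2.52 FPKM), above every value of Vangl2. Dvl3 (4.58 ± 0.48 FPKM) and Dvl2 (1.39 ± 0.15 FPKM), adaptors on the Frizzled side, were called above 1 FPKM. Dvl1, at 0.628 ± 0.184 FPKM, was called below, but neither way after rescaling to a sum of 1000000 FPKM (log2 difference -0.17). Fzd6, which acts with Fzd3 in neural tube closure, was above at 1.70 ± 0.31 FPKM, close to Ptk7 at 1.57 ± 0.34 FPKM.

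Among ligands and co-receptors 9 of 12 were called above, 2 below and 1 neither way. Sfrp1, a secreted Frizzled-like protein, was the highest at 51.4 ± 6.92 FPKM, and the ligand Wnt5a stood at 8.77 ± 2.05 FPKM. Wnt11, another ligand of the pathway, had a value of 0.0406 FPKM in replicate 3, and 4 of 5 libraries listed it at 0, and Sfrp5 stood at 0.0438 ± 0.0295 FPKM. The co-receptors Ror1 (2.50 ± 0.99 FPKM), Ror2 (1.795 ± 0.51 FPKM) and Ryk (8.50 ± 2.15 FPKM) were above 1 FPKM. Ror1, Ryk, Wnt5a and Cthrc1 were lowest in replicate 1, as the mesenchyme list was. The list did not move as one. Ror2 was lowest in replicate 5 at 1.29 FPKM, and Sfrp2, Gpc4, Wnt5b and Sfrp5 were not lowest in replicate 1 either. Sfrp1 (59.6 FPKM) and Wnt4 (1.72 FPKM) were highest in replicate 1. Genes in general were low in replicate 1, with 38.4% of those whose mean reached 0.5 FPKM above their own mean. The part of mesenchyme, or of this general shift, in these orders was not tested.

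In the list of Scrib partners and of proteins of Vangl or Prickle transport and turnover, all 8 genes were called above 1 FPKM. Dlg1, which acts with Scrib in the same polarity module, stood at 53.6 ± 8.19 FPKM, and Llgl1, the other partner in that module, at 18.1 ± 2.52 FPKM, while Scrib itself was at 0.635 ± 0.237 FPKM. Sec24b, a coat protein that carries Vangl2 out of the endoplasmic reticulum, stood at 28.1 ± 3.38 FPKM. Smurf1, a ubiquitin ligase that acts on Prickle1, was the lowest of this list at 1.47 ± 0.29 FPKM and was called below a level of 2 FPKM (log2 difference -0.29).

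Of 9 cytoskeletal effectors 8 were called above and 1 below. The GTPase Rhoa was the highest at 127 ± 6.79 FPKM, and the formin Daam2 the lowest at 0.293 ± 0.132 FPKM, whereas its paralog Daam1, which links Dishevelled to Rhoa, was above at 1.69 ± 0.26 FPKM. All 3 ciliary effectors were above, from Wdpcp at 6.62 ± 1.44 FPKM to Fuz at 1.81 ± 0.66 FPKM.

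The Fat-Dachsous module, a parallel system of giant cadherins, had 1 of 5 called above, 3 below and 1 neither way. The exception was Fat1 at 5.604 ± 1.64 FPKM. Fat3 stood at 0.563 ± 0.103 FPKM, Fat4 at 0.466 ± 0.144 FPKM and its ligand Dchs1 at 0.762 ± 0.195 FPKM, all called below. The call of Dchs1 (limma adjusted p = 0.0325) was lost without replicate 1, 2, 4 or 5, with log2 differences of -0.15 to -0.20. The sixth member, Dchs2, was not analysed here.

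**Figure D2:**
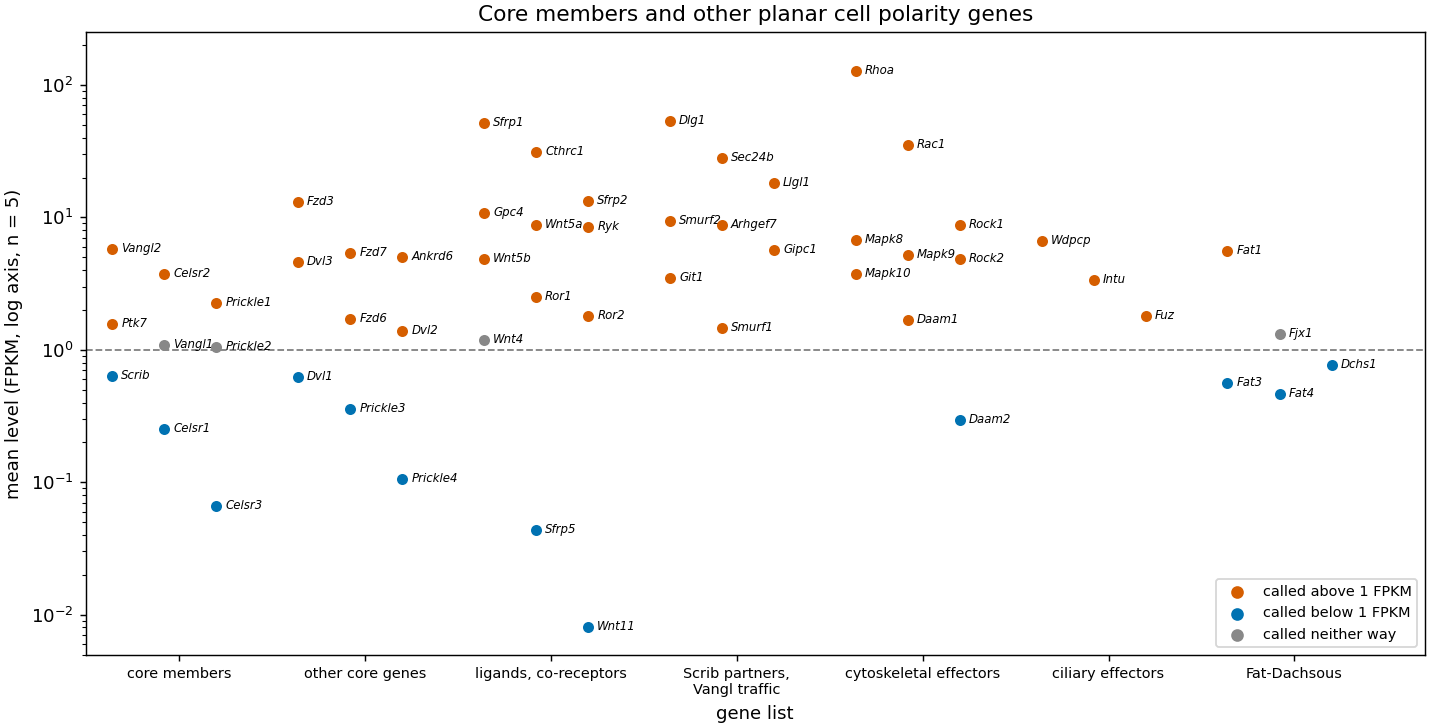
Mean level (FPKM, log axis, n = 5) of the core genes and of the 6 other lists of the pathway. Each point is a gene, coloured by its limma call against 1 FPKM (dashed line). All 8 genes of the list labelled Scrib partners and Vangl traffic lie above the line, while the core genes span both sides.

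The core genes share long transcripts, and several share a high GC content. The longest coding transcript ran from 4144 bases for Prickle1 to 11571 bases for Celsr3. The 3 Celsr genes, Ptk7 and Scrib had a GC content of 57.8% to 61.2%, and of these 5 genes 2 were called above 1 FPKM and 3 below. The Vangl genes, Prickle1 and Prickle2 had 47.7% to 53.2%, and of these 4 genes 2 were called above and none below. Among all 496 tested genes with a GC content of at least 57% and a transcript of at least 4000 bases, 38.1% were called above and 51.2% below, with a median of 0.682 FPKM. Among the 5217 as long with a lower GC content 62.6% were above and 30.6% below, with a median of 3.31 FPKM. The bounds of 57% and 4000 bases were chosen after the data had been seen. Celsr2, at 3.71 FPKM, stood above the median of its class, and Celsr1 and Celsr3, as long and with nearly the same GC content, stood below it. In the same class Ptk7 (1.57 FPKM) stood above the median and Scrib (0.635 FPKM) below it. In the class of lower GC content Vangl2 (5.81 FPKM) stood above the median. Prickle1 (2.24 FPKM), Vangl1 (1.09 FPKM) and Prickle2 (1.06 FPKM) stood below it. The part of GC content in the levels was not tested.

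**Figure D3:**
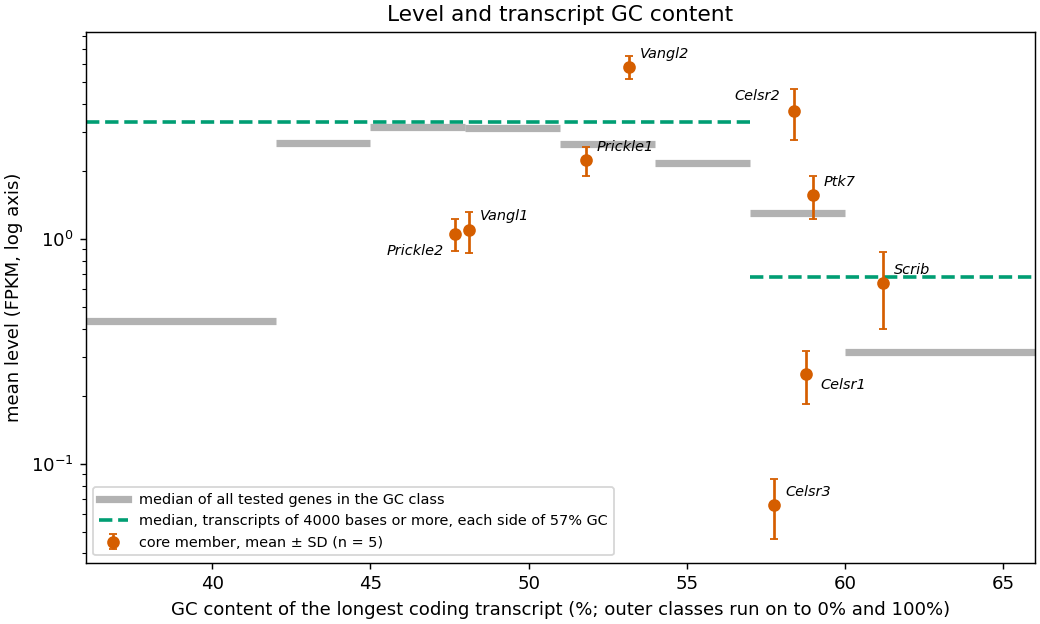
Mean level (FPKM, log axis) against the GC content of the longest coding transcript. Orange points are the core genes with SD (n = 5), grey bars the medians of all tested genes in GC classes, and dashed green lines the medians of transcripts of at least 4000 bases below and above 57% GC (3.31 and 0.682 FPKM). Celsr2 lies above, and Celsr1 and Celsr3 below, the line of their class. Vangl2 and Ptk7 also lie above the line of their own class, and Scrib, Prickle1, Vangl1 and Prickle2 below it.

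Across the libraries the core genes followed more than 1 pattern. Of the 9, 5 were highest in replicate 3 and the other 4 in replicate 1, and 4 were lowest in replicate 4. These counts include Celsr3, with its few reads. Vangl2, Celsr1 and Celsr2 were higher in each of replicates 1, 3 and 5 than in either of replicates 2 and 4. Vangl2 and Celsr1 had the same order of libraries, 1, 3, 5, 2 and 4. In replicate 3, 8 of the 9 lay above their own mean, against 50.7% of the 12219 genes whose mean reached 0.5 FPKM. It was 6 of the 9 in replicate 1 (38.4% of those genes), 2 in replicate 2 (52.7%), 3 in replicate 4 (55.3%) and 4 in replicate 5 (52.9%). The 9 include Celsr1 and Celsr3, whose means do not reach 0.5 FPKM, so the 2 sets are not fully alike. Marker lists moved with replicate 3 too, where the median deviation was 0.47 for mesenchyme, 0.26 for surface ectoderm, -0.21 for neural progenitors and -0.32 for neurons. In replicate 1 it was -0.83 for mesenchyme, -0.26 for surface ectoderm, 0.19 for neural progenitors and 0.34 for neurons. Genes with a transcript of at least 4000 bases, as all 9 have, deviated by 0.04 in replicate 3, and shorter genes by -0.01. The part of these in the order of the libraries was not tested. Replicates of a group have no labels that could tie these orders to a condition.

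GC content moved with the libraries as well. The median deviation of genes with a GC content of at least 57% was 0.05 in replicate 1 and -0.10 in replicate 4, and that of genes under 45% was -0.09 and 0.09. Of the core genes of at least 57% GC, Celsr2 deviated by 0.38 in replicate 1 and by -0.35 in replicate 4, Scrib by 0.06 and -0.22, and Celsr1 by 0.08 and -0.08. Ptk7, at -0.03 and -0.14, was not raised in replicate 1, and Celsr3, at 0.04 and 0.01, was not lowered in replicate 4. Vangl2, of lower GC content, deviated by 0.16 and -0.16. The part of GC content in these deviations was not tested. When the median deviation of each GC class was taken off, an alternative chosen after seeing the data, Vangl2 kept its order of libraries and Celsr2 still had replicates 1, 3 and 5 above 2 and 4, at 4.87, 2.85, 3.72, 2.88 and 4.17 FPKM in replicates 1 to 5. Celsr1 then had replicate 4 (0.261 FPKM) above replicate 5 (0.259 FPKM). After the correction 6 of the 9 genes were highest in replicate 3, 2 in replicate 1 and 1, Celsr3, in replicate 4. Then 1 gene, Vangl2, was lowest in replicate 4, and 5 were lowest in replicate 2, where 1 had been before. The class deviations rest on genes whose mean reached 0.5 FPKM, which the means of Celsr1 and Celsr3 do not. In replicate 4 the correction moved Celsr3 from 0.0714 to 0.144 FPKM and Celsr1 from 0.182 to 0.261 FPKM. The corrected orders of Celsr1 and Celsr3 therefore cannot be interpreted, and these counts include both genes.

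**Figure D4:**
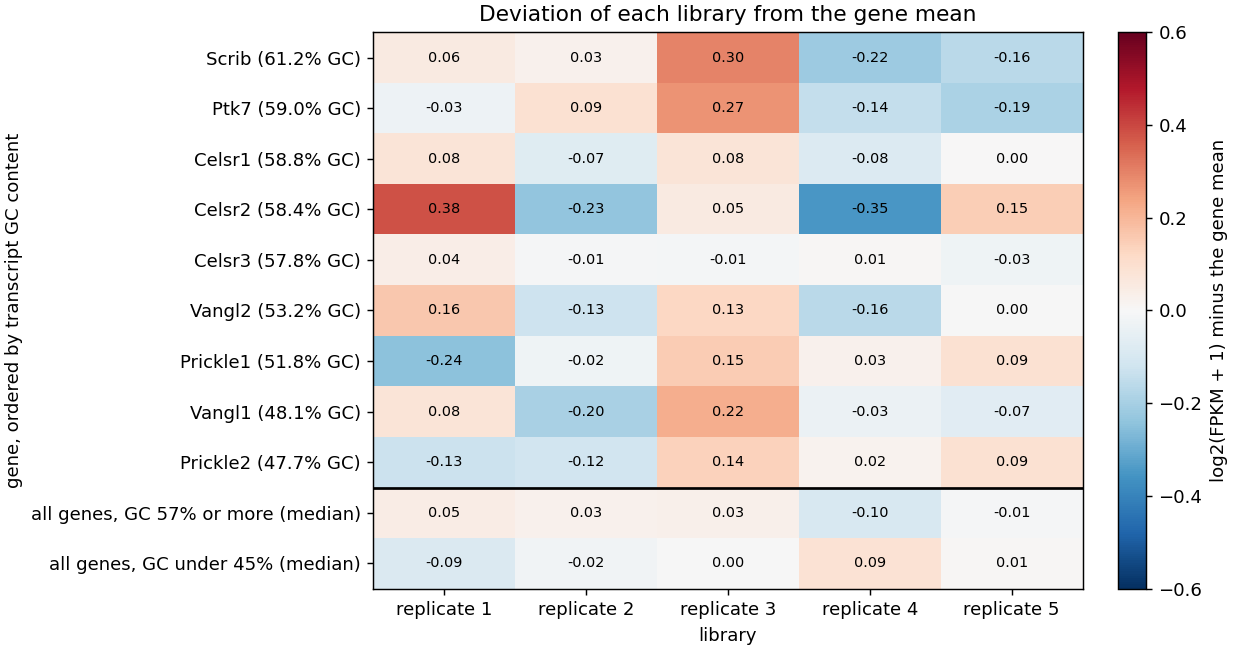
Difference of log2(FPKM + 1) in each library from the gene's own mean over the 5 libraries, for the core genes ordered by transcript GC content and, under the line, for the medians of all genes of high and of low GC content. On this scale, which understates differences of low genes, Celsr2 has the widest spread, 0.38 in replicate 1 and -0.35 in replicate 4. By the ratio of highest to lowest library Scrib has the widest.

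The gene outside the list with the profile most like each core gene was found by the root mean square difference of log2(FPKM + 1) over the 5 libraries. It was Sp140 for Vangl2 (difference 0.08), Six2 for Celsr2 (0.11), Chn2 for Prickle1 (0.03), Pdgfrl for Ptk7 (0.10), Fzd4 for Vangl1 (0.05), Pcdh7 for Prickle2 (0.04), Aff1 for Scrib (0.05), Klk13 for Celsr1 (0.03) and Slc16a14 for Celsr3 (0.02). Celsr2 and Ptk7 had no gene within 0.1, whereas Celsr3 had 4361, as low genes lie close together on this scale.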

How the data were processed

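Total RNA of 5 mouse NEC libraries was reverse transcribed from poly-dT with template switching, amplified as full-length cDNA, sheared and read as 75-base single ends, per the labels' protocols. The authors deposited FPKM per gene and library. Build mm10, TopHat2 2.0.11, Cuffdiff 2.2.1, cutadapt and CASAVA 1.8 are listed in the submitters' processing notes without their roles. The annotation release and strand setting are not given there. Columns were matched to samples by replicate number. Amplification without molecular identifiers can favour some transcripts, which touches comparisons between genes most.

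limma 3.58.1 in R 4.3.3 tested log2(FPKM + 1) against 1 FPKM, two-sided, with a variance trend, after a check on simulated data. Paralogs were compared within libraries by the exact sign-flip permutation test over 32 sign patterns. Python 3.11.15 did the rest. Coordinates, overlaps, lengths and GC content came from GENCODE M21, the same build, in which 21537 of 21801 identifiers were found and 21092 had a coding transcript. Reads per library were estimated from single-transcript genes under 0.15 FPKM and over 800 bases, with 200 bases taken off each length. These estimates include PCR duplicates. Promoter windows came from RefSeq.

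The members and lists were chosen with earlier results of these data known. Named genes were all members, the highest and lowest gene of each list, genes called below in lists with 4 or fewer such, the gene most like each member and the highest marker. Others were named after their values were seen. Alternatives were 2 pseudocounts, 2 scalings, 2 levels, 2 filters, 2 variance models leaving out each library and, added after the data had been seen, removal of the GC-class deviation.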

Additional observations from a re-analysis of the deposited data

Results flagged for a closer look

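Wnt11 was flagged because 1 library stood apart: its value was 0.0406 FPKM in replicate 3, and 4 of 5 libraries listed it at 0, so that the gap to the nearest library made up the whole range (ratio 1, against a critical value of 0.71 for 5 samples). It was the 1 flag among 31 genes and paralog differences examined, where chance alone flags about 1 in 20. With 4 of 5 libraries at 0 the ratio is 1 for any value above 0 in the remaining library. That rate therefore does not apply to Wnt11.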

How the results depend on the processing

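Of 476 values recomputed for 30 levels and counts, 450 kept their direction and their side of the threshold (for counts of genes, stayed within 1.5 times). The 50 values recomputed for the 5 paralog differences kept their sign, and none could pass the threshold. The level tested decided most of the rest. Against 2 FPKM, 2 core genes were called above (Vangl2 and Celsr2) and 6 below, and the log2 differences of Vangl1 (-0.53), Prickle2 (-0.55), Ptk7 (-0.24), Fuz (-0.13) and Smurf1 (-0.29) turned negative. Against 0.5 FPKM, 5 of the other pathway genes were called below, and Scrib (0.11), Dchs1 (0.23), Dvl1 (0.11) and Fat3 (0.057) turned positive. Rescaling to a sum of 1000000 FPKM changed 5 calls, of Scrib, Vangl1, Prickle2, Dvl1 and Dchs1. Celsr3 rests on 12.0 to 25.0 estimated reads per library. Leaving out 1 library gave 4 core genes above and 3 below each time. No fit with a replicate block was possible because the series has 1 group.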
